A study of Homo sapiens with 2 samples.

Results

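The angiogenic ligand genes VEGFA, VEGFB, VEGFC, PGF, ANGPT1, ANGPT2 and ANGPTL4 were followed across both arrays of the series. They were chosen by gene name, as all probe sets annotated to these 7 ligands, which gave 17 of the 54675 probe sets on each array and 7 of the 19775 genes that have a probe set annotated to them alone. The cells are MDA-MB 231, a highly invasive human breast cancer line labelled as estrogen receptor negative. One array holds cells stably transfected with S100A7 cloned into the plasmid pIRES2-EGFP, and the other holds cells stably transfected with the same plasmid lacking S100A7 (the vector cells), so that both carry the plasmid, which also encodes a green fluorescent protein. S100A7, or psoriasin, is a small calcium-binding protein known from inflamed skin, and the series asks which genes it regulates. Both were grown in DMEM with serum and antibiotics. A line in the S100A7 sample's label concerns embryos, which these cells are not, and it was set aside. The labels do not say whether each stable line was 1 clone or a pool. There was 1 array per group, so there are no replicates, no test and no p-value, and no difference given here was checked against the spread between cultures.

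The vascular endothelial growth factors are secreted ligands of receptor tyrosine kinases on endothelial cells. VEGF-A drives the sprouting and permeability of blood vessels through VEGFR1 (FLT1) and VEGFR2 (KDR), VEGF-B and placental growth factor (PGF) bind VEGFR1, and VEGF-C acts on lymphatic vessels through VEGFR3 (FLT4). Angiopoietin-1 activates the receptor TIE2 (TEK) and stabilises vessels, whereas angiopoietin-2 acts on the same receptor and can oppose it. ANGPTL4, a related secreted protein, inhibits lipoprotein lipase, is induced by hypoxia and by the fatty acid-activated PPAR receptors, and is known in breast cancer for loosening vessel walls during spread to the lung.

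Promoter windows are shown for ANGPTL4, the measured ligand with the highest ratio of S100A7 over vector, and for VEGFC and VEGFB, whose ratios were nearer to 1, so that their start regions can be read side by side. They come from RefSeq (build GRCh38.p14). Windows were used for 4 of the 7 ligands (PGF has 2), each running from 250 bases before the gene's start to 50 after it. No window of VEGFA, ANGPT1 or ANGPT2 was used, so the start regions of these ligands were not compared. Capitals mark matches, on either strand, to ACGTG or GCGTG, the core forms of the element bound by hypoxia-inducible factors, and to TATAAA, the TATA box, and none of the marked matches overlap. The windows lie at chr19:8363905-8364204 on the plus strand for ANGPTL4, at chr4:176792873-176793172 on the minus strand for VEGFC, and at chr11:64234334-64234633 on the plus strand for VEGFB.
ANGPTL4: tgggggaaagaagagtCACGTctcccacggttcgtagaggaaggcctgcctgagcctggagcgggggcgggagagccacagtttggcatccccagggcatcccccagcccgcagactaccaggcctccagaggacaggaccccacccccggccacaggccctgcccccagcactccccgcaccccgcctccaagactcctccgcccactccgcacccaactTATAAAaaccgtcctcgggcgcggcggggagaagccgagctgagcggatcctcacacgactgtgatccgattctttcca
VEGFC: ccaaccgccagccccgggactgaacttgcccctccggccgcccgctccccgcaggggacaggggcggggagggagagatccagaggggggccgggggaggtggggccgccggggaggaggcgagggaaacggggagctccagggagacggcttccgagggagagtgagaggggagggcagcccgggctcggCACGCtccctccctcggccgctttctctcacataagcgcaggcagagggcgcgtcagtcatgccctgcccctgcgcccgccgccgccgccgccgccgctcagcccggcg
VEGFB: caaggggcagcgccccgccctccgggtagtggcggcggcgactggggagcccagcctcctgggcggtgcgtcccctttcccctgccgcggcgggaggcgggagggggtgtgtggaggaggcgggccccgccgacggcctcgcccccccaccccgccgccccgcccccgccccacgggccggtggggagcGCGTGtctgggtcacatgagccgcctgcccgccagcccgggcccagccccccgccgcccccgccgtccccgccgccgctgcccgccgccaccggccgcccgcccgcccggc
The ANGPTL4 window held a TATAAA beginning at position -29 from the start and an ACGTG on the opposite strand at position -234, and its GC content was 66.3%. Neither VEGFC nor VEGFB had a TATAAA or an ACGTG in the window. VEGFC had a GCGTG on the opposite strand at position -59 with a GC content of 76.3%, and VEGFB had a GCGTG on the printed strand at position -61 with a GC content of 84.7%. Of the 35116 promoter windows of the same length used here, 11.5% held TATAAA, 21.4% ACGTG and 36.5% GCGTG, and the median GC content was 58.7%. Matching letters are a description of the windows and show no binding.

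Values are MAS5 intensities, a linear brightness per probe set, as deposited. With 2% of probe sets trimmed from each end, the mean intensity of either array was 500.1, so the arrays were compared as they stand. Each array's median over probe sets other than controls, 71.0 for vector and 69.0 for S100A7, served as a floor in place of detection calls. A probe set at or above the floor on 1 array or both counted as measured, and a fold with 1 side below the floor is a lower bound. Ratios are always S100A7 over vector, on the log2 scale, and a gene is represented by its brightest measured probe set. The S100A7 probe set read 11.99 with vector and 13232 with S100A7, at least 186-fold higher, as the labels state. Among markers of the line, vimentin (VIM) read 38087 and 35575, CD44 read 11465 and 12481, and all 9 probe sets of the estrogen receptor gene ESR1 and both of the progesterone receptor gene PGR were below the floor on both arrays. EPCAM, an epithelial surface protein, read 544 and 513. Of the measured line markers the keratin gene KRT18 had the lowest ratio, at 18785 and 15670 (-0.26). KRT8 read 6412 and 6927, and ERBB2 read 497 and 540.

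None of the measured ligands differed by 2-fold or more. Of the 7, 6 were measured, and 0 of these were higher and 0 lower in S100A7 cells by 2-fold or more. Among all 12688 measured genes, 1.8% passed 2-fold upwards, 2.25% downwards and 4.05% in either direction, so a count of 0 among 6 is near what that background gives. Of the 17 ligand probe sets 10 were measured, and 0 of them passed 2-fold, against 4.3% of all 29460 measured probe sets. The largest fold among those at or above the floor on both arrays was 1.49, and 1 of the 10, for ANGPT1, has only a bound (at least 1.32-fold, and 1.73-fold as deposited). The remaining 7 ligand probe sets, all of them for angiopoietins or ANGPTL4, were below the floor on both arrays. In bulk RNA, fewer cells with a transcript and less of it per cell cannot be told apart.

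**Figure D1:**
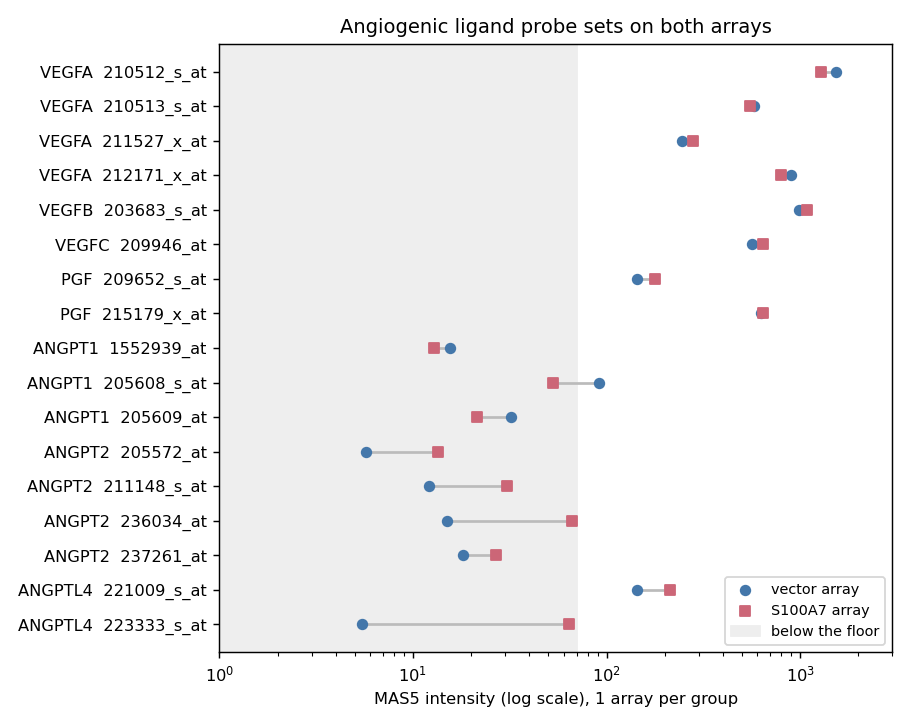
MAS5 intensity on a log axis for each of the 17 ligand probe sets, with a circle for the vector array, a square for the S100A7 array and shading below the floor (drawn between the floors of 71.0 and 69.0). The VEGF and PGF probe sets nearly coincide on both arrays, while those of ANGPT2 and 1 of ANGPTL4 lie in the shaded range with the S100A7 square to the right.

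VEGFA, the main driver of vessel growth, was read by 4 probe sets that were all well above the floor, and 3 of them were slightly lower in S100A7 cells. Its brightest probe set, 210512_s_at, read 1529 with vector and 1289 with S100A7, a log2 ratio of -0.25 (1.19-fold lower). Probe set 212171_x_at read 900.0 and 800.2 (-0.17) and 210513_s_at read 576 and 549.9 (-0.07). The dimmest, 211527_x_at, read 247 and 281 and went the other way (0.19). The 4 log2 ratios thus spanned 0.44 and had a standard deviation of 0.19. A difference at least as far from 0 as that of VEGFA was seen in 54.9% of all measured genes. VEGFA lies on chromosome 6, where the median log2 ratio of the 664 measured genes was 0.24, and its 40 nearest measured neighbours, 20 on each side, had a median of 0.26. Relative to these neighbours its log2 ratio was -0.51, and the part of the neighbourhood in its level was not tested. All 4 probe sets carry the suffix _s_at or _x_at, which marks probes that can match several transcripts, so the VEGF-A splice forms cannot be told apart here.

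VEGFB, a ligand of VEGFR1, read 981 with vector and 1082 with S100A7 on its 1 probe set (log2 ratio 0.14, 1.10-fold higher). VEGFC, the lymphatic growth factor, read 566 and 646 on its 1 probe set, a log2 ratio of 0.19 (1.14-fold higher). This is the 1 measured ligand probe set without a shared-transcript suffix. Differences at least this large were found in 72.9% of measured genes for VEGFB and in 64.1% for VEGFC. Their chromosomal neighbours had opposite signs, with a median of 0.24 around VEGFB on chromosome 11 and of -0.26 around VEGFC on chromosome 4. Relative to its neighbours VEGFB was at -0.10 and VEGFC at 0.45.

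PGF was read by 2 probe sets, both slightly higher in S100A7 cells. The brighter, 215179_x_at, read 627 and 645 (log2 ratio 0.04, 1.03-fold higher), and the dimmer, 209652_s_at, read 144 and 178 (0.31, 1.24-fold higher). Of all measured genes 91.5% differed at least as much as its brighter probe set. The 40 neighbours of PGF on chromosome 14 had a median of 0.31, which put PGF at -0.27 relative to them, so its sign, like that of VEGFB, turned with that subtraction.

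ANGPT1, the ligand that activates TIE2, was measured by 1 of its 3 probe sets, near the floor. Probe set 205608_s_at read 91.2 with vector and 52.6 with S100A7, below the floor there, which gives at least 1.32-fold lower (log2 ratio at least 0.40 below 0). The other 2 probe sets read 32.2 and 15.6 in vector cells and 21.3 and 12.9 in S100A7 cells. All 3 probe sets were thus lower in S100A7 cells, with 2 of them below the floor on both arrays.

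ANGPT2, the ligand that can oppose angiopoietin-1, was below the floor on both arrays with all of its 4 probe sets, so no fold is given. Probe set 236034_at read 15.0 with vector and 66.4 with S100A7, just under the floor of 69.0. Probe set 211148_s_at read 12.1 and 30.7, 205572_at read 5.74 and 13.5, and 237261_at read 18.1 and 27.0. All 4 were higher in S100A7 cells. Such dim values spread widely: of the 25153 probe sets below the floor on both arrays, 46% differed at least 2-fold as deposited and 21.7% were at least 2-fold higher in S100A7 cells. A ratio at least as high as that of 236034_at occurred in 9.04% of them, and as that of 237261_at in 30.6%. With a floor at the 30th percentile ANGPT2 would be measured, at least 2.49-fold higher, in a setting where 4.05% of 16769 genes were at least 2-fold higher.

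ANGPTL4 had the highest log2 ratio among the measured ligands. Probe set 221009_s_at read 143 with vector and 213 with S100A7, 1.49-fold higher (log2 ratio 0.57), and 18.9% of measured genes differed at least as much. Its other probe set, 223333_s_at, read 5.45 with vector and 64.2 with S100A7, below the floor on both arrays, and a ratio at least as high occurred in 1.74% of the probe sets below the floor on both. Both probe sets were higher in S100A7 cells. The 40 neighbours of ANGPTL4 on chromosome 19 had a median of -0.17, and relative to them its log2 ratio was 0.75. The measured genes next to it in the order of log2 ratios, over these 2 arrays only, were CFLAR (an inhibitor of death receptor signalling, 1394 and 2076) and NFKBIZ (a nuclear IkB protein, 2084 and 3103) just above it, and TMEM51 (539 and 802) and CNN3-DT (199 and 296) just below it, all at 0.57.

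In order of log2 ratio, the measured ligands ran from ANGPTL4 through VEGFC, VEGFB, PGF and VEGFA to ANGPT1, whose value is a bound. Between probe sets of the same gene, the pooled standard deviation of log2 ratios was 0.36 over the 6465 genes with 2 or more, a yardstick for probe differences and not for cultures. ANGPTL4 and VEGFC differed by 0.38, VEGFC and VEGFB by 0.05, VEGFB and PGF by 0.10, and PGF and VEGFA by 0.29, the last 3 being less than 0.36. VEGFA and ANGPT1 differed by at least 0.16, with no upper limit because ANGPT1 is a bound. Of the 6 ligands, 4 lay closer to 0 than 0.36. Their median log2 ratio was 0.09 and that of all measured genes -0.04, with 4 ligands above 0 and 2 below, while 45.8% of all genes were above 0. Relative to chromosomal neighbours the split was 2 above and 4 below.

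**Figure D2:**
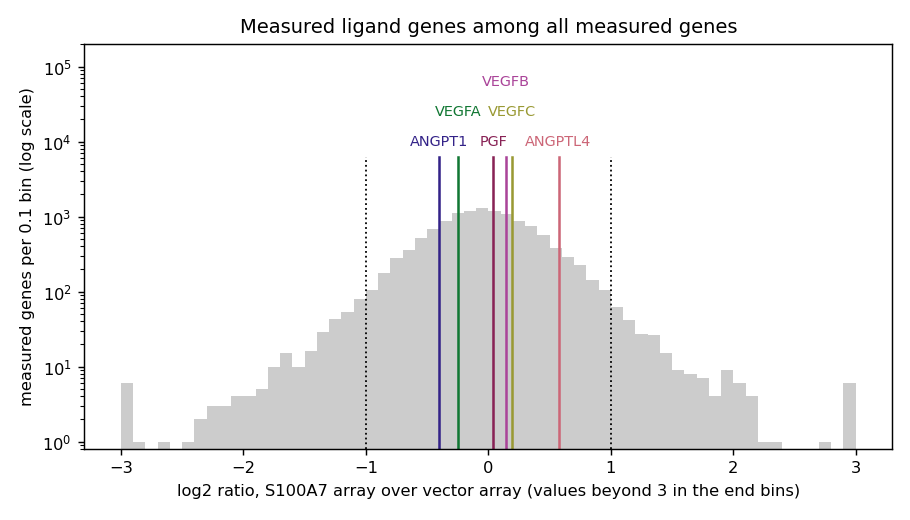
Number of measured genes per 0.1 of log2 ratio (S100A7 over vector, log count axis), with a coloured line at each of the 6 measured ligands and dotted lines at 2-fold. All 6 lines fall between the dotted lines, ANGPTL4 at 0.57 being the highest and ANGPT1, a lower bound in size, the lowest at -0.40.

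**Figure D3:**
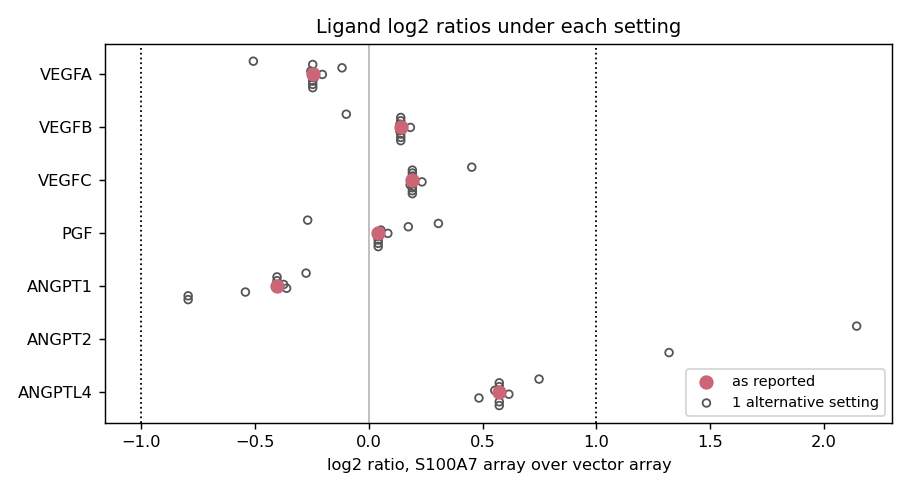
Log2 ratio (S100A7 over vector) of each ligand as reported (filled circles) and under each alternative setting (open circles), with dotted lines at 2-fold and a grey line at 0. Points stay within the dotted lines for all ligands other than ANGPT2, whose 2 open circles at 1.32 and 2.14 come from lower or no floors.

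The receptors were mostly dim in these cancer cells. KDR (1 probe set), FLT4 (3) and TEK, the TIE2 gene (2), were below the floor on both arrays. KDR read 42.3 with vector and 44.5 with S100A7. FLT1 was measured by 1 of 6 probe sets, 232809_s_at, which read 224 and 162 (log2 ratio -0.47). TIE1, an endothelial receptor related to TIE2 that binds no angiopoietin by itself, was the exception: probe set 204468_s_at read 134 with vector and 574 with S100A7, 4.27-fold higher. Its other probe set, 1560657_at, read 18.7 and 1.78, below the floor on both and in the opposite direction. On both arrays the endothelial markers VWF, CLDN5, EMCN and ERG lay below the floor, whereas ESAM (1207 and 1053), ROBO4 (1297 and 1198), PECAM1 (132 and 168) and CDH5 (24.8 and 79.0) were measured. Their part in the TIE1 value was not tested.

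The co-receptors of VEGF, neuropilin-1 and neuropilin-2, had probe sets that disagreed. For NRP1, 212298_at read 222 and 232 (log2 ratio 0.06) and 210510_s_at read 289 and 119 (-1.28, 2.43-fold lower). For NRP2, 6 of 11 probe sets were measured, the brightest at 217 and 183 (-0.24). The others of NRP2 ran from 0.03 to -1.02, the last on 225566_at, which read 140.2 with vector and 60.0 with S100A7, so that it is a bound. By brightest probe sets, 1 of the 4 measured receptors and co-receptors was at least 2-fold higher and 0 were lower, against 1.8% and 2.25% of all genes, with a list median of -0.09. That count rested on TIE1, whose measured probe set has the suffix _s_at, and it was 0 without suffixed probe sets. Taking for each gene the probe set with the largest ratio, NRP1 and NRP2 were lower by 2-fold or more.

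**Figure D4:**
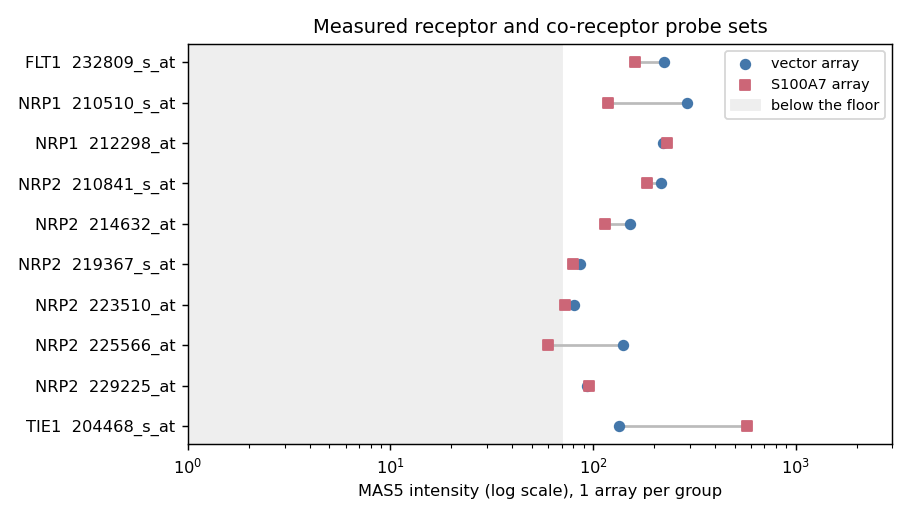
MAS5 intensity on a log axis for the measured probe sets of VEGF and angiopoietin receptors and co-receptors, with a circle for the vector array, a square for the S100A7 array and shading below the floor. TIE1 has its square far to the right (134 to 574). Squares lie to the left for FLT1, 1 of 2 NRP1 probe sets and the NRP2 probe sets other than 229225_at. They lie furthest to the left for 210510_s_at of NRP1 and 225566_at of NRP2.

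Other ligands of these families gave no measured gene: of 9 listed, ANGPT4, ANGPTL6, ANGPTL7 and ANGPTL8 were below the floor on both arrays, and the other 5 had no probe set annotated to them alone. Among proteins that process VEGF-C or handle lipases, CCBE1, a secreted cofactor of VEGF-C activation, was higher with all 3 of its probe sets: 107 and 193 on the brightest (1.80-fold), 87.4 and 212 on 229641_at (2.43-fold), and 73.4 and 158 on 243805_at (2.16-fold). Its neighbours on chromosome 18 had a median of 0.41. FURIN, a protease that cleaves VEGF-C and ANGPTL4 precursors, had the lowest ratio of the list, at 915 and 529 (-0.79), with a median of -0.41 among its neighbours on chromosome 15. ADAMTS3, the protease that works with CCBE1, read 107 and 85.8 (-0.31), and LPL, the lipase that ANGPTL4 inhibits, read 71.2 and 69.2, at the floor. By brightest probe sets 0 of the 6 measured genes of this list were outside 2-fold, against 4.05% of all genes, with a median of -0.07. With the median of its 3 probe sets CCBE1 was counted as at least 2-fold higher.

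Oxygen-sensing genes had a median of 0.07 over 8 measured of 10, with 0 outside 2-fold. HIF1A, the oxygen-regulated subunit of hypoxia-inducible factor 1, was nearest to it, at 4713 with vector and 9120 with S100A7 on its 1 probe set (1.94-fold higher, log2 ratio 0.95). The related EPAS1 read 983 and 746 (-0.40) on its brightest probe set, while its other measured one read 139 and 168 (0.27). ARNT2, a partner subunit, had the lowest ratio at 285 and 172 (-0.73), with a median of -0.36 among its neighbours on chromosome 15. Other hypoxia-inducible genes, 11 measured of 12, had a median of 0.01, with 6 above 0 and 5 below and 0 outside 2-fold. Among all genes 4.05% were outside 2-fold, so the counts of 0 in both lists are near that background. Highest was DDIT4, an inhibitor of mTORC1, at 2621 and 3654 (0.48), and lowest ANKRD37 at 549 and 349 (-0.65). CA12, a membrane carbonic anhydrase, was lower with all 6 measured probe sets, from -0.08 (a bound) to -1.61, its brightest reading 564 and 393 (-0.52). Its remaining probe set, 204509_at, was below the floor on both arrays and ran the other way (15.8 and 38.0). The neighbours of CA12 on chromosome 15 had a median of -0.25.

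PPAR receptors and their target genes, another route known to induce ANGPTL4, had a median of 0.15 over 10 measured of 12. Of these, 8 were above 0, against 45.8% of all genes. PPARA had the highest ratio, at 180.3 and 280.1 (0.64), although its 6 measured probe sets went down to -0.29. FABP4, a fatty acid-binding protein, read 340.3 with vector and 57.7 with S100A7, at least 4.93-fold lower, the 1 of 10 outside 2-fold against 4.05% of all genes, a bound that falls under 2-fold with a floor at the 70th percentile. Its other probe set, at 6.69 and 57.8, was below the floor on both arrays and ran the other way. PDK4, a mitochondrial kinase and a typical PPAR target, read 97.0 and 99.7 (0.04).

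Of 8 endogenous angiogenesis inhibitors 6 were measured, and by brightest probe sets all 6 had a log2 ratio above 0, with a median of 0.49, while 45.8% of all genes were above 0. VASH1, vasohibin-1, had measured probe sets on both sides of 0, both bounds: 203940_s_at read 12.9 and 89.4 (0.33), and 230546_at read 83.3 and 33.3 (-0.27). The list's median fell midway between VASH1 and SPARC (72.7 and 114, near the floor with vector), so it is itself a bound. The other SPARC probe set, below the floor on both arrays, ran the other way (19.6 and 7.37). With a floor at the 30th percentile the median was 0.16 over 7 genes, VASH1 was then represented by 230546_at and lower by 2-fold or more, and SERPINF1 (37.4 and 8.82) entered below 0. The median was 0.19 with no floor and 0.31 with a pseudocount of 32. THBS2, thrombospondin-2, read 291 and 752, 2.58-fold higher, and was the 1 of 6 outside 2-fold, against 4.05% of all genes. TIMP3, a matrix protease inhibitor that also blocks VEGF binding to VEGFR2, was higher with all 4 probe sets (log2 ratios 0.39 to 0.77), its brightest reading 955 and 1611. THBS1, thrombospondin-1, had the lowest ratio, at 4287 and 4328 (0.01), while its 7 probe sets ran from -0.31 to 0.69. Over the 3 genes left without shared-transcript probe sets the list's median was -0.07. RNA-binding proteins that act on VEGFA messenger RNA had a median of -0.27 over 4 genes, 0 outside 2-fold against 4.05% of all genes. ZFP36, which destabilises transcripts, was lowest at 778 and 562 (-0.47), and ELAVL1, which stabilises them, highest at 10571 and 10586 (0.00).

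**Figure D5:**
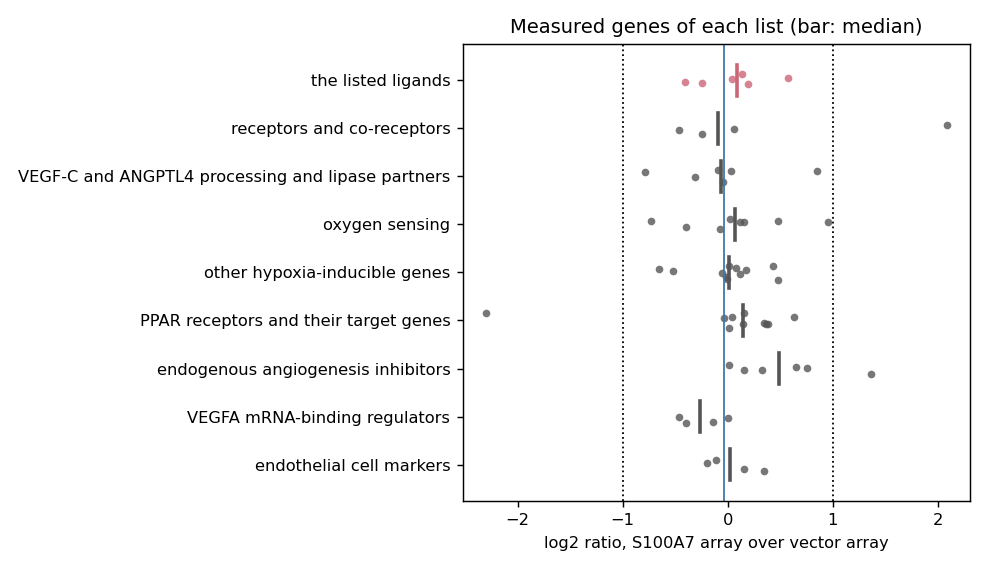
Log2 ratio (S100A7 over vector) of each measured gene in the ligand list and in lists of related genes, with a thick bar at each list's median, a blue line at the median of all genes (-0.04) and dotted lines at 2-fold. TIE1, THBS2 and FABP4 (a bound) are the 3 points beyond 2-fold.

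Markers of other cell types were checked because vessel genes are usually read in endothelium. Of 8 endothelial markers, VWF, CLDN5, EMCN and ERG were below the floor on both arrays. Of the 4 measured, 0 were outside 2-fold, against 4.05% of all genes (median 0.02). CDH5, VE-cadherin, read 24.8 with vector and 79.0 with S100A7. The summed intensity of the 19 probe sets of these markers was 3501 with vector and 3144 with S100A7, most of it from ROBO4 (1297 and 1198 on its brighter probe set) and ESAM (1207 and 1053). For fibroblast markers the sum over 18 probe sets was 1622 and 1442, with DCN and LUM below the floor on both arrays. COL1A1 read 842 and 487 on its brightest probe set (log2 ratio -0.79). Its other measured probe sets ran the other way, at 153 and 259 (0.76) and at 202 and 271 (0.42). COL1A2 read 58.8 and 89.4 and PDGFRB 65.4 and 117, both bounds because vector was below the floor. By brightest probe sets the median log2 ratio of these 3 genes was 0.33, itself a bound. For blood cell markers the summed intensity was 398 and 303 over 13 probe sets, with PTPRC, CD14, LYZ and TYROBP below the floor on both. HBB was measured by 3 of its 4 probe sets, near the floor and each lower with S100A7. The brightest read 115 and 82.9 (log2 ratio -0.47). The others read 89.2 and 36.9, and 72.5 and 25.5, below the floor with S100A7.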

How the data were processed

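Total RNA from 1 vector and 1 S100A7 culture was labelled with biotin and measured on Affymetrix arrays, per the labels' protocols. Each probe set has 1 deposited intensity, a linear value computed by the authors with MAS5, per the submitters' processing notes. Its version and scaling target and any present or absent calls were not stated in the sources used here. The number of arrays limits the precision.

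From these intensities, log2 ratios of S100A7 over vector were computed with Python 3.11.15, NumPy 2.4.6 and pandas 2.3.3. Genes came from the platform's annotation table, which names 1 gene for 41091 probe sets other than controls, several for 1801 and none for 11721; 41037 were matched by Entrez identifier to GRCh38.p14 gene names. Probe sets with several genes or none were left out of gene counts. The floor was the 50th percentile of each array, and genes were called at 2-fold. Chromosomal neighbours were ordered by that gene table. Calling was tested on an array simulated from the vector array, with changes placed only in genes well above the floor. That test does not cover levels as dim as those of ANGPTL4 and the angiopoietins, or the spread between cultures.

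Named were all ligand and receptor probe sets that a result used, S100A7, the members of each related list outside 2-fold and its highest and lowest member, and the genes next to ANGPTL4 in log2 ratio; other genes were chosen after their values were seen. The ligands and lists were chosen with earlier results of these data known. Alternatives were other floors (30th and 70th percentile, none), a pseudocount of 32, median centring, quantile normalization, other probe set rules, subtraction of 40 chromosomal neighbours, and thresholds of 1.5-fold and 3-fold.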

Additional observations from a re-analysis of the deposited data

How the results depend on the processing

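The measured ligands stayed within 2-fold under every alternative tried, with the exception of ANGPT2, which has a value only in 2 of them. With a floor at the 30th percentile it was at least 1.32 higher on the log2 scale, and with no floor 2.14 higher, which made the number of ligands past 2-fold 1 in both settings, against 0. Under the same 2 settings ANGPT1 had a log2 ratio of -0.79, no longer a bound. These floors admit dim probe sets: 1658 of 16769 genes passed 2-fold with the 30th percentile and 4298 of 19775 with no floor, against 514 of 12688. The count was 187 with the 70th percentile, 930 with the probe set of largest ratio, 2305 at 1.5-fold and 102 at 3-fold. VEGFA ran from -0.51 to -0.12 over 9 alternatives, VEGFC from 0.18 to 0.45 over 10 and ANGPTL4 from 0.48 to 0.75 over 8. With a floor at the 70th percentile only 4 ligands were measured, and ANGPTL4 and ANGPT1 had no value. VEGFB reached -0.10 and PGF -0.27 when chromosomal neighbours were subtracted, and kept their sign in 8 of 9 alternatives each. That subtraction also turned the ligands' median to -0.18. Of 144 counts over related and marker lists 25 moved, by more than 1.5 times or to or from 0. Of 109 medians 10 moved by more than 0.36. Without suffixed probe sets VEGFC was the 1 ligand left. No paired analysis was possible because each group has 1 array.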

Other observations

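Probe sets that the platform annotation gives to several genes took no part in the comparisons. The probe set shared by VEGFD, a lymphatic growth factor related to VEGF-C, and a read-through transcript was below the floor on both arrays, at 12.3 with vector and 21.7 with S100A7. EGLN2, an oxygen-sensing prolyl hydroxylase, shares 2 probe sets with a read-through transcript, and the dimmer is also annotated to the gene RAB4B. These read 2037 and 653 in vector cells and 1444 and 357 in S100A7 cells, both lower in S100A7 cells. The 1 probe set annotated to EGLN2 alone was below the floor on both arrays.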
